A study of Mus musculus with 12 samples.

Results

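Cholesterol and fatty acids are built from acetyl-CoA in the cytosol and the endoplasmic reticulum. The 28 genes described here were chosen by name: 20 genes of cholesterol synthesis, transport and control that are known targets or partners of the transcription factor SREBP2 (gene Srebf2), and 8 genes of fatty acid synthesis and desaturation known mainly as targets of SREBP1 (gene Srebf1, itself among the 8). Each of the 28 symbols matched 1 of the 55487 genes counted, and all 28 were among the 15734 genes that passed the filter on low counts. Polyadenylated RNA was sequenced from MPC5, an immortalized mouse line derived from podocytes, the epithelial cells of the glomerular filter. The vector group (6 libraries, genotype given as WT) carried an empty plasmid, and the SPARCoe group (6 libraries, genotype given as Sparc overexpression) carried a plasmid that expresses Sparc, a secreted collagen-binding protein of the matrix. Both were taken 24 hours after transfection. All cells are of 1 line, and neither the promoter of the plasmid nor the share of transfected cells is stated in the labels. The labels do not tell whether libraries of a group are separate cultures. The p-values therefore measure only how much these libraries vary, which may be technical variation.

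SREBP factors are made as precursors in the membrane of the endoplasmic reticulum. When sterols are scarce, the escort protein SCAP carries them to the Golgi apparatus, where proteases free the active fragment, and when sterols are plentiful, INSIG proteins hold SCAP back. Genes of cholesterol synthesis are therefore known to move together when the sterol supply changes. In podocytes, cholesterol is a component of the membrane at the slit diaphragm.

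Library totals ran from 33051035 to 47380987 counts. Sparc went from 751 ± 11.2 to 10119.7 ± 260.5 CPM (counts scaled to a common library size with TMM factors; mean ± SD of 6 libraries), and an exact two-sided permutation test of its log2 CPM gave p = 0.00216, the smallest value that 6 against 6 libraries allow. Of the podocyte markers, Nphs1 had 0 counts in the vector libraries and 53 in SPARCoe, and Wt1 had 37 and 20, so these defining markers were near 0. Others were well detected: Kirrel, Cd2ap, Podxl and Synpo had means of 400, 326, 88.5 and 66.6 CPM in vector. In SPARCoe their means were 340, 314, 96.7 and 46.0 CPM. The 10 podocyte markers (5 tested, 2 higher and 2 lower) summed to between 871 and 897 CPM in vector and between 790.0 and 819 CPM in SPARCoe. All 5 tested of 7 tubule markers fell, with sums between 624 and 660.1 CPM in vector and between 471 and 509.7 CPM in SPARCoe. Of the 2 tubule markers too scarce to test, Umod had 0 counts and Slc34a1 had 2 counts in vector and 74 in SPARCoe. The 6 adipocyte markers summed to at most 0.906 CPM and the 6 hepatocyte markers to at most 0.430 CPM in any library, with Cidea, Ttr, Serpina1a and Fga at 0 counts. The 8 leukocyte markers (4 tested, 1 higher and 1 lower) summed to between 18.3 and 22.6 CPM in vector and between 19.5 and 21.8 CPM in SPARCoe. The part of the podocyte and tubule marker differences in the results below was not tested. In bulk RNA, fewer cells of a type and less RNA per cell cannot be told apart.

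Changes in both branches were small. They ran from -15.1% (Scd2) to 19.0% (Sc5d) between the group means, and none of the 28 fold changes reached 1.2-fold. Of the 28 genes, 7 rose, 3 fell and 18 did not pass (edgeR quasi-likelihood test, Benjamini-Hochberg adjusted p under 0.05 over all genes tested). The 10 changed genes are 35.7% of the members, beside 29.1% of all tested genes (14.9% higher and 14.1% lower). Among the 9126 tested genes with a mean of at least 10 CPM, a level reached by 27 members, 36.9% changed (15.4% higher and 21.6% lower). The share of changed members was thus close to the background.

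The spread between libraries was small enough to bound the changes. The 95% interval of the change lay within 1.2-fold either way for 25 of the 28 genes, including all 18 that did not pass, and within 1.3-fold for all 28. The groups did not overlap for 3 members, Insig1 (higher), Dhcr7 and Scd2 (both lower), beside 15.6% of all tested genes (8.57% higher and 7.04% lower). Tested against a 1.2-fold change with edgeR's glmTreat, 0 of the 28 passed at the adjusted p and 0 at an unadjusted p under 0.05. This outcome was fixed, because all 28 estimates lay inside the bound, so it adds nothing to the intervals. Of all tested genes, 992 passed at the adjusted p.

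**Figure D1:**
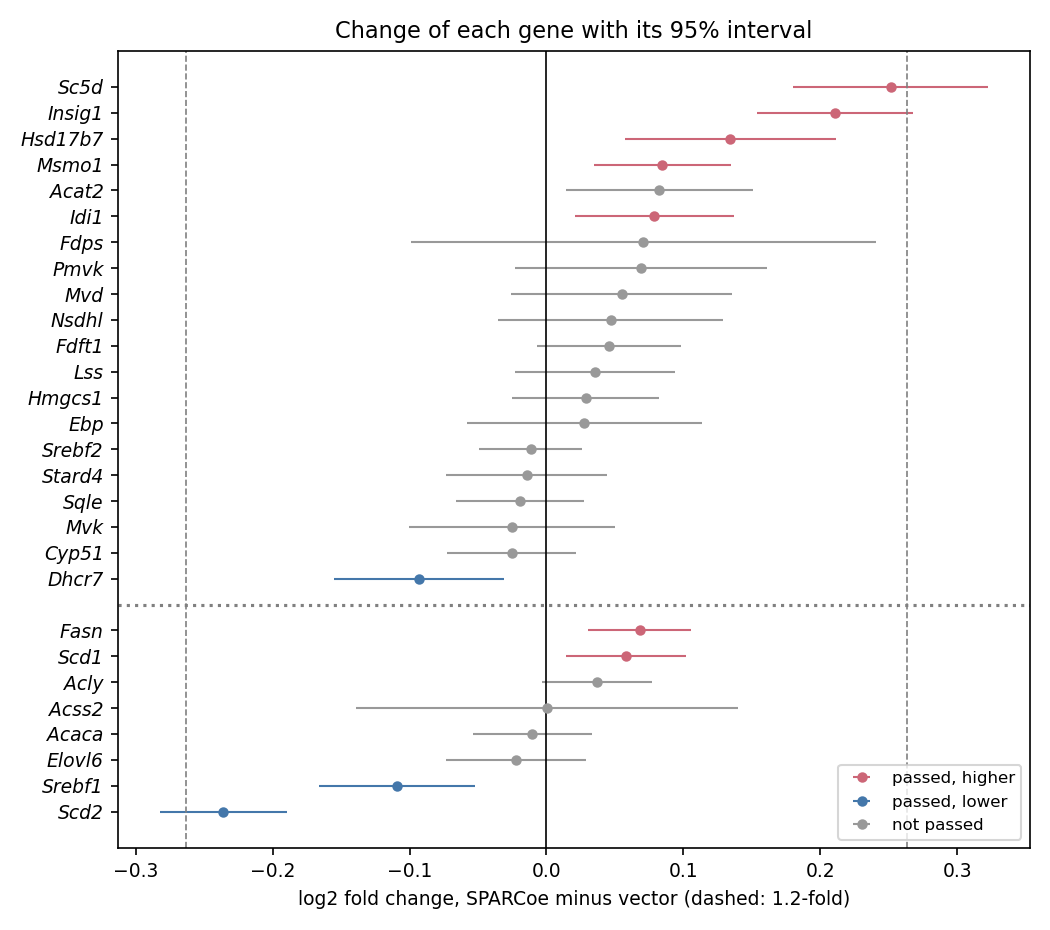
Log2 fold change of each of the 28 genes, SPARCoe minus vector (edgeR, 6 against 6 libraries), with its 95% interval; colour marks genes past the adjusted p and dashed lines mark 1.2-fold. Sc5d (0.25) and Scd2 (-0.24) lie at the ends, and the other 26 lie between them.

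Per length of transcript, Scd2 led the levels of the vector group at 293 ± 10.3 FPKM (fragments per kilobase of transcript, scaled to library size; mean ± SD of 6 libraries). Fasn followed at 255 ± 6.36 FPKM and Srebf2 at 254 ± 6.03 FPKM, and this pair did not differ beyond its spread. Cyp51 stood at 151 ± 4.30 FPKM and Acly at 129 ± 2.71 FPKM. Scd1 (123 ± 1.86 FPKM) and Msmo1 (109 ± 3.99 FPKM) came next. Acss2 (5.34 ± 0.353 FPKM) and Fdps (5.88 ± 0.669 FPKM) closed the order and overlapped in their spread. The median over members was 40.5 FPKM in the cholesterol branch and 93.9 FPKM in the fatty acid branch. Fdps makes farnesyl diphosphate, and 6.69% of the 100-base stretches of its longest GENCODE M21 transcript also occur in other annotated genes. In GENCODE M21 Fdps also overlaps a protein-coding gene on its own strand, and Acss2 overlaps 5 annotated genes. How reads that match several places or genes were counted is not stated in the labels, so the levels of Fdps and Acss2 are uncertain.

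**Figure D2:**
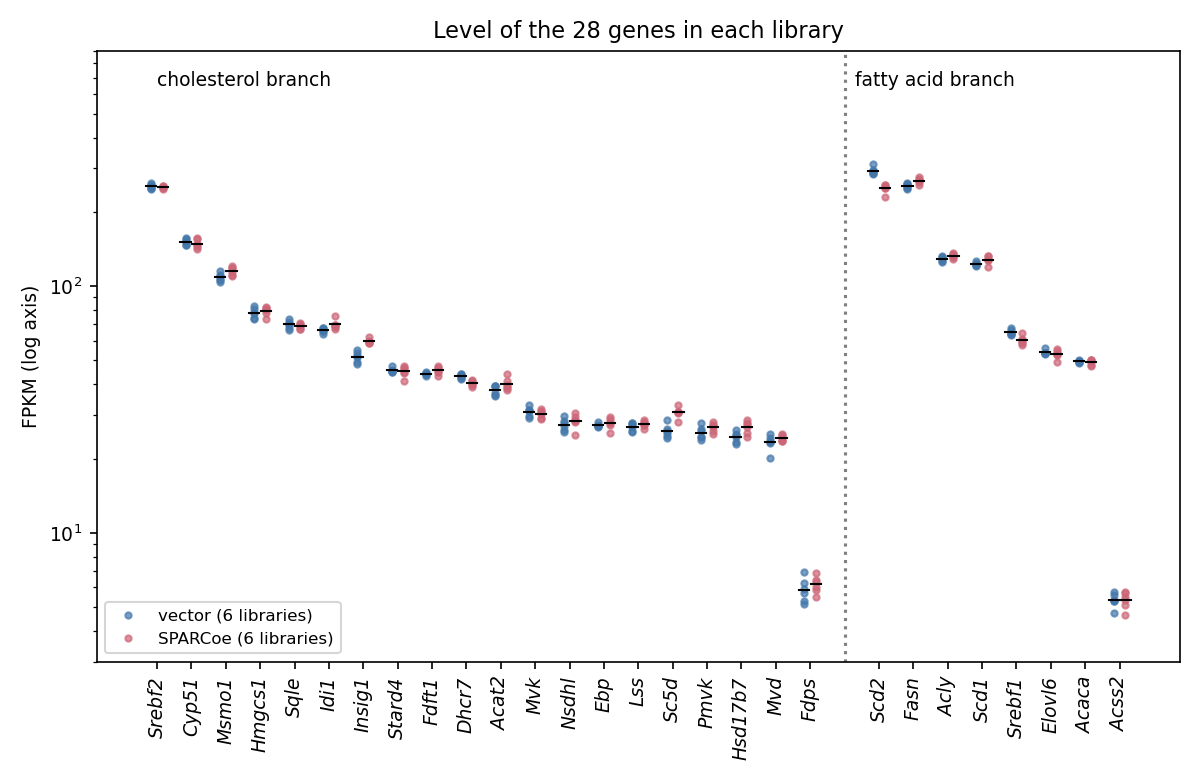
FPKM on a log axis for each gene in each of the 12 libraries, by branch (colours mark vector and SPARCoe; bars are group means). Scd2, Fasn and Srebf2 are at the top, and Fdps (5.88 FPKM in vector) and Acss2 (5.34 FPKM) are the lowest.

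Of the SREBP genes, Srebf1 fell slightly and Srebf2 did not pass the test. Srebf2 ran from 560.2 to 595 CPM in vector (median 573) and from 559 to 581 in SPARCoe (median 570.4), so the groups overlapped almost completely. Its log2 fold change was -0.01 ± 0.02 (SE; edgeR adjusted p = 0.707), with a 95% interval from -0.05 to 0.03. Srebf1 ran from 92.7 to 99.1 CPM in vector (median 94.3) and from 84.5 to 95.3 in SPARCoe (median 87.3). SPARCoe replicate 5 was its highest SPARCoe library and the only one above the lowest vector library, and the log2 fold change was -0.11 ± 0.03 (SE; edgeR adjusted p = 0.00231). Counts per gene do not separate Srebf1 transcripts that start at different promoters. The difference between the changes of Srebf1 and Srebf2 was not tested.

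Insig1 holds SCAP in the endoplasmic reticulum and is itself an SREBP target. It ran from 84.1 to 94.9 CPM in vector (median 89.7) and from 102 to 108 in SPARCoe (median 102), with no overlap: each SPARCoe library was above each vector library. The gene rose by 0.21 ± 0.03 on the log2 scale (SE; edgeR adjusted p = 6.34e-08), or 1.16-fold. It spans positions 28071363 to 28078662 of chromosome 5, plus strand (GENCODE M21, GRCm38), and overlaps no other annotated gene.

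**Figure D3:**
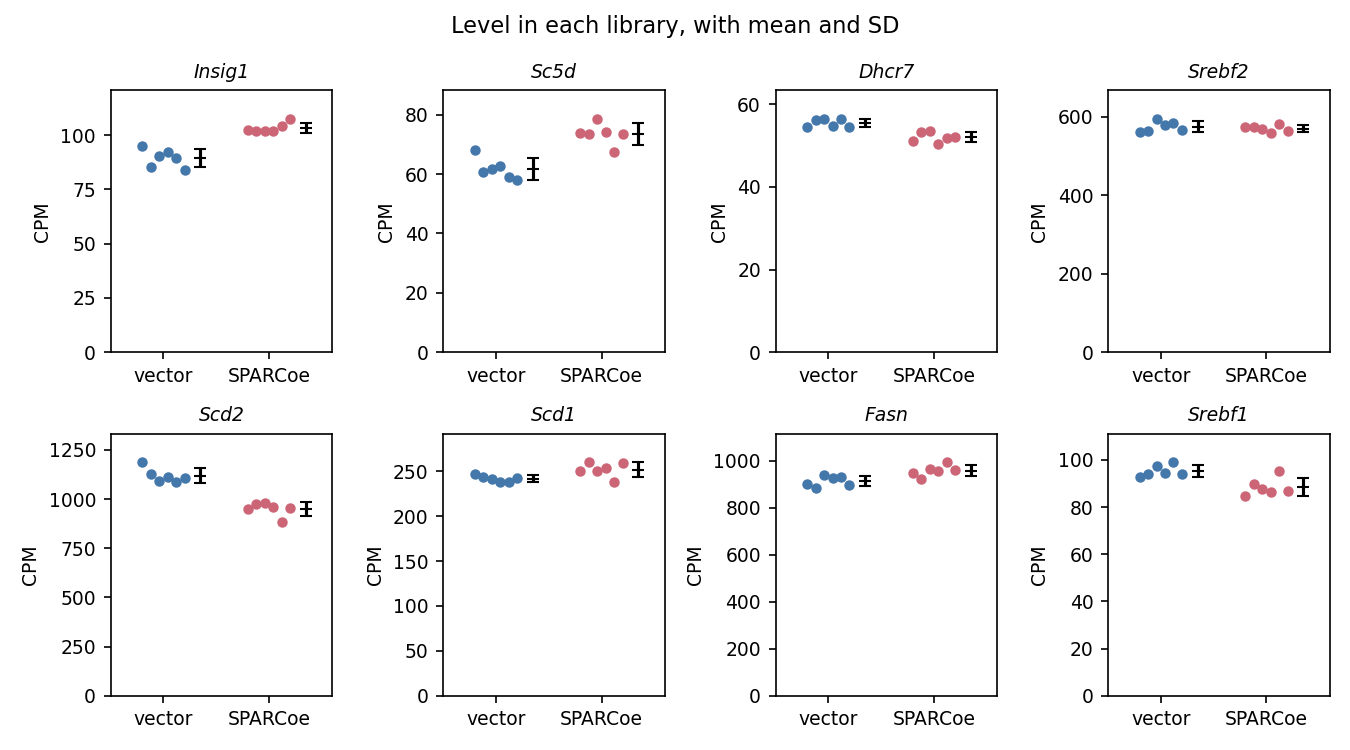
CPM of 8 genes in each library (points; colours mark vector and SPARCoe) with the mean and SD of each group; each axis starts at 0. Insig1, Dhcr7 and Scd2 separate the groups, and Srebf2 does not.

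The 7 enzymes of the mevalonate route, which turn acetyl-CoA into farnesyl diphosphate, were nearly level: 1 rose and 6 did not pass. This is 14.3% changed, beside 29.1% of all tested genes. The member that rose was Idi1, which isomerizes isopentenyl diphosphate. It ran from 75.0 to 79.7 CPM in vector (median 77.5) and from 78.6 to 88.1 in SPARCoe (median 81.4). The log2 fold change was 0.08 ± 0.03 (SE; edgeR adjusted p = 0.0331), with SPARCoe replicate 3 the highest library. The call was lost without vector replicate 4, 5 or 6 or SPARCoe replicate 3 (edgeR adjusted p = 0.0579, 0.075, 0.0573 and 0.125), and over all alternatives the adjusted p ran from 0.0167 to 0.125. Of the 100-base stretches of its longest transcript, 27.6% also occur in other annotated genes.

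Hmgcs1, the synthase that condenses acetyl-CoA with acetoacetyl-CoA, had 172 ± 7.48 CPM in vector and 175 ± 6.49 in SPARCoe and did not pass (edgeR adjusted p = 0.479). Acat2, the cytosolic thiolase that makes acetoacetyl-CoA, had 64.5 ± 2.79 CPM in vector and 68.2 ± 3.74 in SPARCoe and did not pass either (edgeR adjusted p = 0.0631). It passed without vector replicate 1, 3 or 4 or SPARCoe replicate 5 or 6 (edgeR adjusted p = 0.0363, 0.0421, 0.0457, 0.0468 and 0.0305; 0.0305 to 0.267 over all alternatives), and it shares 35.3% of such stretches with Acat3 and Tcp1. Mvk, Pmvk and Mvd act on mevalonate by phosphorylation and decarboxylation. Their log2 fold changes were -0.03 ± 0.04, 0.07 ± 0.05 and 0.05 ± 0.04 (SE), and that of Fdps was 0.07 ± 0.08 (SE).

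Of the 10 enzymes from squalene to cholesterol, 3 rose, 1 fell and 6 did not pass. The 40% changed lie close to the 36.9% of all tested genes with at least 10 CPM (29.1% of all tested genes). Sc5d, the sterol desaturase that acts directly before Dhcr7, ran from 58.0 to 68.3 CPM in vector (median 61.2) and from 67.4 to 78.7 in SPARCoe (median 73.6). Vector replicate 1 and SPARCoe replicate 5 were the only libraries that crossed between groups. Sc5d rose by 0.25 ± 0.04 on the log2 scale (SE; edgeR adjusted p = 2.77e-07), or 1.19-fold. It spans 42251595 to 42264256 of chromosome 9 (minus strand, GENCODE M21), with no overlapping gene and no shared 100-base stretch.

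Dhcr7, the reductase that makes cholesterol from its 7-dehydro precursor, was the member of this group that fell. It ran from 54.5 to 56.6 CPM in vector (median 55.5) and from 50.5 to 53.5 in SPARCoe (median 52.0). Its groups did not overlap, and the log2 fold change was -0.09 ± 0.03 (SE; edgeR adjusted p = 0.0178). Sc5d and Dhcr7, which act in sequence, thus passed in opposite directions. The difference between them was not tested.

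Msmo1 oxidizes the methyl groups at carbon 4 of the sterol ring, and Hsd17b7 is a reductase of the same demethylation. Msmo1 rose from 169.7 ± 5.72 to 180.0 ± 6.59 CPM (adjusted p = 0.00718, edgeR; SD of 6 libraries), and Hsd17b7 from 45.7 ± 2.13 to 50.1 ± 3.0 CPM (adjusted p = 0.00553, edgeR; SD of 6 libraries). For both, SPARCoe replicate 5 was the lowest SPARCoe library and the groups overlapped.

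The rest of the ring pathway did not pass. Sqle, the squalene epoxidase and a control point of the pathway, ran from 185 to 205 CPM in vector (median 195) and from 187 to 197 in SPARCoe (median 193), with the SPARCoe libraries wholly inside the vector range. Cyp51, which removes the first methyl group from lanosterol, had 224 ± 5.85 CPM in vector and 220.3 ± 8.205 in SPARCoe. Fdft1 (squalene synthase), Lss (lanosterol synthase), Nsdhl (a dehydrogenase of the demethylation complex) and Ebp (the sterol isomerase) had log2 fold changes of 0.05, 0.04, 0.05 and 0.03. Fdft1 shares 21.5% of its 100-base stretches with Ctsb, which overlaps it, and with a predicted gene. Stard4, a cytosolic carrier of cholesterol, had a change of -0.01 ± 0.03 on the log2 scale (SE; adjusted p = 0.774, edgeR).

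In the fatty acid branch Scd2, the most abundant member per length, fell the most. Scd2 encodes a stearoyl-CoA desaturase, which makes monounsaturated fatty acids. It ran from 1087 to 1188 CPM in vector (median 1109) and from 882 to 978 in SPARCoe (median 958), with no overlap. The log2 fold change was -0.24 ± 0.02 (SE; edgeR adjusted p = 1.16e-09), or 1.18-fold lower. SPARCoe replicate 5 was the lowest library, and the call held without it.

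Its paralog Scd1 moved slightly the other way. Scd1 ran from 238 to 248 CPM in vector (median 242) and from 238 to 261 in SPARCoe (median 252). SPARCoe replicate 5 was the lowest of all 12 libraries, and the other 5 SPARCoe libraries were above each vector library. The log2 fold change was 0.06 ± 0.02 (SE; edgeR adjusted p = 0.0382). The call was lost without vector replicate 4, 5 or 6 or SPARCoe replicate 2, 4 or 6 (edgeR adjusted p = 0.0811, 0.0615, 0.0501, 0.111, 0.0608 and 0.111), and the adjusted p ran from 0.00413 to 0.138 over all alternatives.

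The ratio of Scd2 to Scd1 in FPKM was between 2.34 and 2.48 in the vector libraries and between 1.90 and 2.02 in SPARCoe. It was formed after the values were seen and is given without a test. The genes lie near each other on chromosome 19, Scd2 from 44293674 to 44306864 (plus strand) and Scd1 from 44394455 to 44407879 (minus strand; GENCODE M21). Few of their 100-base stretches occur in another gene, 0.896% for Scd2 and 2.66% for Scd1.

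Fasn, the synthase that builds palmitate, ran from 886 to 938 CPM in vector (median 915) and from 922 to 995 in SPARCoe (median 960.0). The groups overlapped, SPARCoe replicate 5 was the highest library, and Fasn rose by 0.07 ± 0.02 on the log2 scale (SE; edgeR adjusted p = 0.00400). The enzymes that feed it did not pass. Acly, which makes cytosolic acetyl-CoA from citrate, had 309 ± 6.42 CPM in vector and 316 ± 5.71 in SPARCoe (adjusted p = 0.179, edgeR). Acaca, the acetyl-CoA carboxylase, had 169 ± 1.27 CPM in vector and 168 ± 3.54 in SPARCoe, and the 95% interval of its log2 fold change ran from -0.05 to 0.03. Of its 100-base stretches, 42.8% also occur in a predicted gene. Acss2, which makes acetyl-CoA from acetate, had a log2 fold change of 0.00 ± 0.07 (SE), and Elovl6, which elongates palmitate, -0.02 ± 0.03 (SE).

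In the cholesterol branch 5 of 20 members rose and 1 fell (30%), 14 of 20 log2 fold changes were above 0, and their median was 0.05. In the fatty acid branch 2 of 8 rose and 2 fell (50%), 4 of 8 were above 0, and the median was -0.01. The background was 29.1% of all tested genes and 36.9% of those with at least 10 CPM. Only 1 fatty acid member rose when vector replicate 4, 5 or 6 or SPARCoe replicate 2, 4 or 6 was left out. Over all 15734 tested genes the median was -0.0033, with 7707 above 0. The difference between the branch medians was 0.0513 on the log2 scale. It was not tested, because the members were chosen with results known.

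Library by library, the mean log2 CPM of the 20 cholesterol genes, set to the vector mean, lay between -0.0281 and 0.0524 in vector and between -0.0089 and 0.0848 in SPARCoe. Vector replicate 1 was the highest vector library and above SPARCoe replicates 5 and 6, and it held the highest vector level for 11 of the 20 genes. SPARCoe replicate 5 held the lowest SPARCoe level for 12 of the 20 cholesterol genes and for 6 of the 8 fatty acid genes. The mean of the 8 fatty acid genes lay between -0.016 and 0.0164 in vector and between -0.0751 and -0.0057 in SPARCoe, and the groups overlapped. With 1 library left out at a time, between 5 and 7 cholesterol genes and between 3 and 4 fatty acid genes changed.

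Mean summed levels moved in opposite directions in the branches, but the groups overlapped in the cholesterol branch. Its sums ran from 2120 to 2220 CPM in vector and from 2164 to 2258 CPM in SPARCoe. Those of the fatty acid branch ran from 2951 to 3045 CPM in vector and from 2811 to 2914 CPM in SPARCoe, with no overlap. The cholesterol genes summed to 2174 ± 33.4 CPM in vector and 2219.8 ± 35.9 CPM in SPARCoe, and the fatty acid genes to 2988 ± 31.1 CPM and 2871 ± 36.6 CPM (SD of 6 libraries). Without Scd2 the fatty acid genes summed to between 1844 and 1898 CPM in vector and between 1899 and 1941 CPM in SPARCoe. The lower sum of the fatty acid branch in SPARCoe was thus that of Scd2, and the other 7 together were slightly higher. These sums were not tested.

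**Figure D4:**
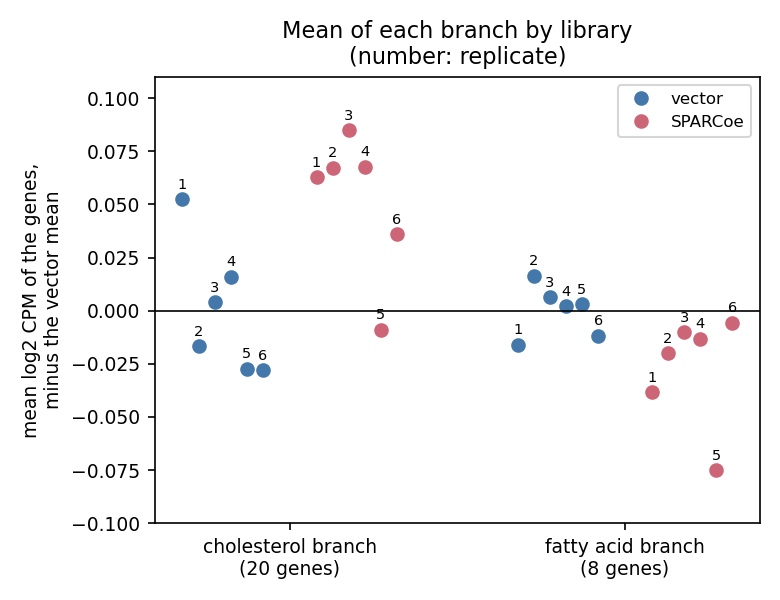
Mean log2 CPM of the genes of each branch in each library, minus the mean of the 6 vector libraries. SPARCoe replicate 5 is the lowest SPARCoe library in both branches (-0.0089 and -0.0751), and vector replicate 1 the highest vector library in the cholesterol branch (0.0524).

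Sequence upstream of the start sites is shown for Insig1 and Sc5d, which had the largest rises, and for the SREBP genes, so that elements through which SREBP factors and their partners are known to act can be seen. Hmgcs1 was added after the motif search as the only member found with an exact match to the sterol response element given below. The RefSeq promoter table (GRCm38.p6) held 22 of the 28 genes, with 250 bases before and 50 after each start. Of these genes 3 had several starts (Dhcr7, Pmvk and Srebf1), and a gene was counted when the window of any of its starts held the motif. The motifs searched on both strands were the sterol response element TCACNCCAC, the box CCAAT bound by NF-Y, a usual partner of SREBP factors, and the E-box CACGTG. They do not overlap each other in the sequences shown. Printed bases lie before both the RefSeq and the GENCODE M21 start, 5′ to 3′ on the strand of the gene, with motif matches on either strand in capitals.
Insig1, chr5:28071162-28071362, plus strand: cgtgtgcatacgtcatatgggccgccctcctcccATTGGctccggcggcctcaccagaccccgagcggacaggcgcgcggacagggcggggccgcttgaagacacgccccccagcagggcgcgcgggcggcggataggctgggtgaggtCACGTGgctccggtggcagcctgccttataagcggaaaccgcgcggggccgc
Sc5d, chr9:42264301-42264550, minus strand: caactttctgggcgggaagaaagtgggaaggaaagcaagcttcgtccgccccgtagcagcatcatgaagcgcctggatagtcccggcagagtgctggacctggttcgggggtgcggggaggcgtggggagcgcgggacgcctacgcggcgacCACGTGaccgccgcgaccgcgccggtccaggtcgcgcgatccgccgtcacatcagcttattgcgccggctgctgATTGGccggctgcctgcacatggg
Hmgcs1, chr13:119690101-119690350, plus strand: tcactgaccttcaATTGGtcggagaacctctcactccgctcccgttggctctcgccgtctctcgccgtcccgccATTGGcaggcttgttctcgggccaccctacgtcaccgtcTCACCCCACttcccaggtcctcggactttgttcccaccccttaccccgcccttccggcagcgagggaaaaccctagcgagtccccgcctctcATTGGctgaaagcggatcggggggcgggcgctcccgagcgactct
Srebf2, chr15:82147019-82147180, plus strand: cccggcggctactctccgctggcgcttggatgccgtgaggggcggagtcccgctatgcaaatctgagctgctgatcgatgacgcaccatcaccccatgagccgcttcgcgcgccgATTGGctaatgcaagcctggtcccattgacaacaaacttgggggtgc
Srebf1, chr11:60222582-60222831, minus strand: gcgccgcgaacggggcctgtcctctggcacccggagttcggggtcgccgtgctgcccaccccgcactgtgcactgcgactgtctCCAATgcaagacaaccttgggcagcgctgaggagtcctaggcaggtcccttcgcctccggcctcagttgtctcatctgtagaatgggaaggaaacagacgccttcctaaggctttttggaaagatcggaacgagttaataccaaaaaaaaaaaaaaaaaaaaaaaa

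The NF-Y box was common among the members. It occurred in 15 of 16 cholesterol genes and 4 of 6 fatty acid genes in the table, beside 41.1% of all 27025 genes. The sterol response element was found in Hmgcs1 alone, 137 bases before the RefSeq start, beside 1.44% of all genes. Only exact matches to its letters were counted, so elements that differ from them were not searched for in the other genes. The E-box was found in Insig1, Sc5d, Hsd17b7 and Dhcr7, beside 8.09% of all genes. Dhcr7 had 3 windows, and the most upstream one held none of the motifs: its E-box and its NF-Y box lay in the windows of different later starts, inside the gene as GENCODE M21 annotates it. Counted by window, the E-box was in 4 of 27 member windows (14.8%) and in 7.15% of 32851 windows of all genes. These are 4 of the 8 members in the table that passed the test, with Dhcr7 lower and the others higher, and 0 of the 14 that did not pass held it. A match describes letters in a window, and this split was noticed after the calls were known.

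Around the synthesis genes, 7 further lists of lipid genes held 104 genes, of which 93 were tested. Of these, 28 rose and 16 fell, which is 47.3% of those tested beside 29.1% of all tested genes. Of the 75 with at least 10 CPM, 37 changed (49.3%), beside 36.9% of all tested genes at that level (15.4% higher and 21.6% lower). Of 9 sterol enzymes outside the 20, 1 was higher (2 with upper-quartile scaling) and 1 lower. Nus1, a subunit of the enzyme that makes dolichol, had 101 ± 3.48 CPM in vector and 109 ± 3.27 in SPARCoe (adjusted p = 0.00123, edgeR). Lbr, a sterol reductase of the nuclear envelope, had 132 ± 4.25 CPM in vector and 125 ± 2.90 in SPARCoe (adjusted p = 0.0156, edgeR). The groups overlapped for both.

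Of 14 genes that process SREBP or control its turnover, 4 were higher (28.6%) and 3 lower (21.4%). Among all tested genes 14.9% were higher and 14.1% lower, and 15.4% and 21.6% of those with at least 10 CPM. Scap, the escort, rose from 79.4 ± 1.59 to 90.5 ± 1.87 CPM (adjusted p = 1.54e-07, edgeR; SD of 6 libraries). Fbxw7, a ubiquitin ligase subunit that targets the active SREBP fragment among other proteins, rose from 29.1 ± 1.24 to 38.1 ± 1.41 CPM (adjusted p = 7.27e-11, edgeR; SD of 6 libraries). Erlin2, a protein of the endoplasmic reticulum that takes part in protein degradation there, was lower and had 135 ± 3.39 CPM in vector and 122 ± 2.11 in SPARCoe (adjusted p = 4.76e-06, edgeR). The groups did not overlap for any of these 3 genes.

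Sterol uptake and transport genes had 5 of 15 higher and 2 lower (1 with RLE or upper-quartile scaling). These are 33.3% and 13.3%, beside 14.9% and 14.1% of all tested genes. Npc2, the lysosomal protein that hands cholesterol on for export, rose from 187 ± 4.05 to 258 ± 4.25 CPM, or by 0.46 ± 0.02 on the log2 scale (SE; adjusted p = 3.65e-22, edgeR). Scarb1, a lipoprotein receptor, had 109 ± 2.67 CPM in vector and 119 ± 1.73 in SPARCoe (adjusted p = 2.41e-05, edgeR). Osbp, a sterol exchanger between the endoplasmic reticulum and the Golgi apparatus, had 228 ± 5.50 CPM in vector and 212 ± 1.49 in SPARCoe (adjusted p = 0.000119, edgeR). The groups did not overlap for these 3.

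Of the LXR, efflux, oxysterol and ester genes, 6 of 11 tested (54.5%) rose, beside 14.9% of all tested genes, and 5 did not pass. Several of these genes are scarce, and no background share was taken at their level. Nr1h3, which encodes the sterol receptor LXR alpha, had 27 counts summed over vector and 132 over SPARCoe (adjusted p = 0.000124, edgeR). Its vector median was 0.0963 CPM, with a minimum of 0, and its SPARCoe libraries ran from 0.318 to 0.910 CPM. It thus passed the filter on low counts only through the SPARCoe libraries, where it was higher. Its call, counted among the 6 that rose, is therefore weak support. Abca1, the cholesterol exporter, had 1.05 ± 0.357 CPM in vector and 1.69 ± 0.242 in SPARCoe (adjusted p = 0.00397, edgeR). Pltp, a phospholipid transfer protein, had 7.80 ± 0.460 CPM in vector and 9.74 ± 1.03 in SPARCoe (adjusted p = 0.000987, edgeR), and its groups overlapped, as did those of Abca1. Arl4c, a small GTPase and known LXR target, had 112 ± 4.44 CPM in vector and 119 ± 2.34 in SPARCoe (adjusted p = 0.00409, edgeR). Ch25h, which makes an oxysterol that blocks SREBP processing, had 0 counts in all 12 libraries.

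Other genes of fatty acid supply, elongation and desaturation had 4 of 18 tested higher (22.2%) and 5 lower (27.8%). Beside them stand 14.9% higher and 14.1% lower of all tested genes. The front-end desaturase genes were among the falls: Fads2 fell from 602 ± 11.7 to 559 ± 6.79 CPM (adjusted p = 6.79e-06, edgeR; SD of 6 libraries). Fads3, their relative, had 358 ± 7.02 CPM in vector and 326 ± 7.67 in SPARCoe (adjusted p = 5.37e-07, edgeR). Fads1, named after its value was seen, had 522 ± 5.84 CPM in vector and 490.0 ± 7.73 in SPARCoe (adjusted p = 7.38e-05, edgeR). Scd2 was thus not the only desaturase gene that fell, and the groups did not overlap for these 3. Acsl4, which activates polyunsaturated fatty acids, rose from 84.2 ± 4.40 to 97.6 ± 4.06 CPM (adjusted p = 5.50e-07, edgeR; SD of 6 libraries). Aacs, which activates acetoacetate, had 142 ± 4.54 CPM in vector and 157 ± 3.66 in SPARCoe (adjusted p = 4.05e-06, edgeR). Acacb, the mitochondrial carboxylase, had only 1.26 ± 0.288 CPM in vector and 2.16 ± 0.255 in SPARCoe (adjusted p = 0.000218, edgeR).

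Glycerolipid synthesis had 4 of 13 tested genes higher and 2 lower (1 with upper-quartile scaling). These are 30.8% and 15.4%, beside 14.9% and 14.1% of all tested genes. Lpin1, a phosphatidate phosphatase that makes diacylglycerol, ran from 8.72 to 11.01 CPM in vector (median 9.81) and from 28.4 to 32.9 in SPARCoe (median 29.98). It rose 3.09-fold (by 1.63 ± 0.05 on the log2 scale, SE; adjusted p = 1.03e-26, edgeR), more than any member of the branches. Dgat2, which makes triglyceride, had 3.44 ± 0.258 CPM in vector and 5.58 ± 0.695 in SPARCoe (adjusted p = 3.22e-07, edgeR). Gpat3, an acyltransferase of the first step, had 3.88 ± 0.311 CPM in vector and 5.05 ± 0.708 in SPARCoe (adjusted p = 0.00386, edgeR). Agpat3, an acyltransferase that acts before Lpin1, fell from 124 ± 3.49 to 107 ± 2.75 CPM (adjusted p = 3.92e-09, edgeR; SD of 6 libraries). The groups did not overlap for any of these 4 genes.

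Fatty acid oxidation and PPAR genes had 4 of 13 tested higher (30.8%) and 3 lower (23.1%), beside 14.9% and 14.1% of all tested genes. Cpt1a, the gate of mitochondrial import, had 87.4 ± 2.44 CPM in vector and 96.6 ± 3.54 in SPARCoe (adjusted p = 5.69e-05, edgeR). Plin2, a coat protein of lipid droplets, had 282 ± 5.35 CPM in vector and 302 ± 6.81 in SPARCoe (adjusted p = 8.21e-05, edgeR). Ppard, a nuclear receptor for fatty acids, had 56.0 ± 2.85 CPM in vector and 64.4 ± 4.41 in SPARCoe (adjusted p = 6.81e-05, edgeR). Hadha, a subunit of the mitochondrial trifunctional protein, fell from 171 ± 2.23 to 159.8 ± 5.31 CPM (adjusted p = 0.000841, edgeR; SD of 6 libraries). The groups overlapped for Ppard only among these 4.

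**Figure D5:**
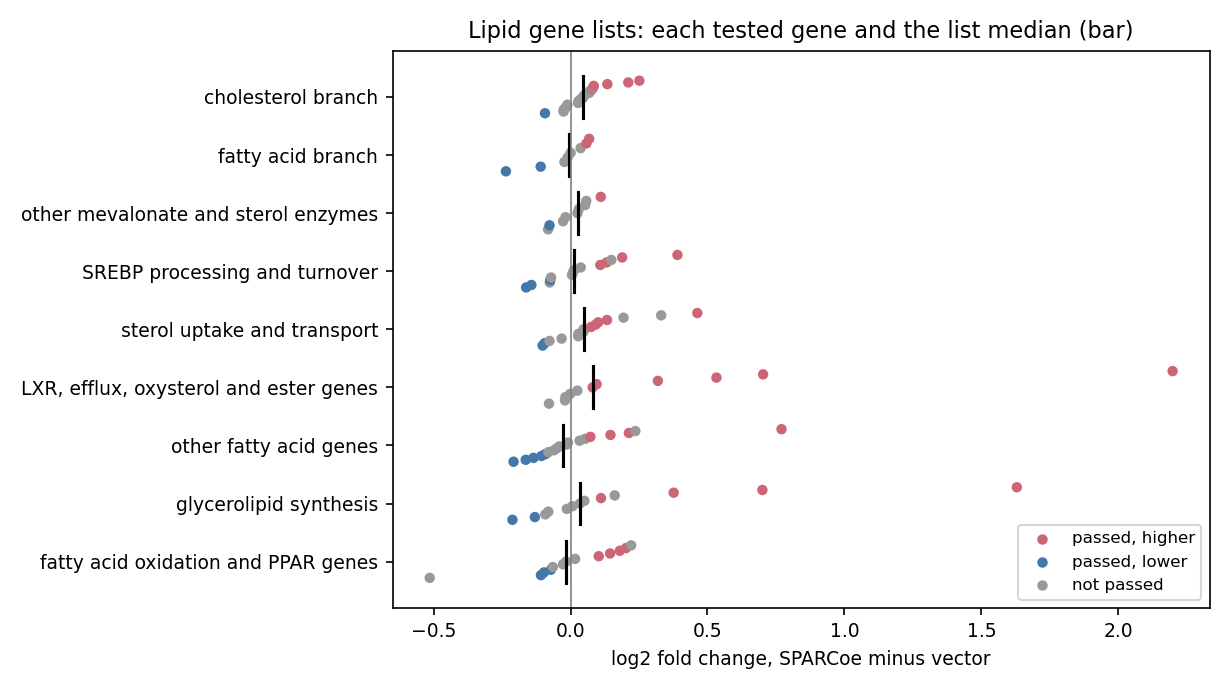
Log2 fold change of every tested gene of both branches and of 7 further lipid gene lists, SPARCoe minus vector; bars are list medians and colour marks genes past the adjusted p. The branches span -0.24 to 0.25, while single genes of other lists reach 1.63 (Lpin1) and 2.20 (Nr1h3). Nr1h3 was near the floor in vector, with 27 counts summed over the 6 libraries.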

How the data were processed

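Per the labels' protocols, RNA was extracted with TRIzol, selected with polyT, fragmented and amplified by PCR. The authors deposited whole-number read counts per Ensembl gene and FPKM values for the same 55487 genes in 12 libraries. The submitters' processing notes name HISAT2, Bowtie2, SAMtools, Picard, featureCounts and edgeR, with no role or order. Genome build, annotation and strand setting: not given in the sources used here. Reads of overlapping genes can therefore not be told apart. Deposited FPKM equalled count over total count and 1 length per gene (lengths equal within 0.001 bases) for 17187 of 17187 genes above 0 in all libraries. Symbols matched 55141 IDs, and IDs without a symbol held at most 0.0476% of a library. Of the counts from 1 to 10, 56.36% were even.

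Counts were tested with edgeR 4.0.16 in R 4.3.3, with TMM factors (0.9938 to 1.0056), filterByExpr, a robust quasi-likelihood fit of all 12 libraries, and Benjamini-Hochberg adjustment over all 15734 genes. The SE was the log2 fold change over the root of F, and 95% intervals follow from it. Log2 CPM used a prior count of 2. FPKM served to compare levels between genes and, with limma 3.58.1, as an alternative, as did DESeq2 1.42.0. Any 2 libraries of a group differed by more than sampling noise (chi-square over its degrees of freedom 3.98 to 8.13 in 30 pairs).

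The members and lists were chosen with earlier results of these data known. All 28 members are named, and from each other list up to 4 genes with the smallest adjusted p, with Abca1, Ch25h and the largest change. Some genes that this rule took are not reported here. List members that carry an older symbol (2) were matched through RefSeq synonyms. Alternatives were other scalings, filters, tools, units, a replicate block and leaving out each library.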

Additional observations from a re-analysis of the deposited data

Results flagged for a closer look

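A single library stood apart from the other 5 of its group in 4 of 62 groups of values examined (28 genes, Sparc and both branch means, in each group of libraries), and chance flags about 1 in 20. The groups were those in which the gap to the nearest library was more than 0.625 of the range. For Scd2, SPARCoe replicate 5 was the lowest at 9.78 log2 CPM, beside 9.89 in the next (882 and 950.2 CPM). For Idi1, SPARCoe replicate 3 was the highest at 6.46, beside 6.36 in the next. For Elovl6, vector replicate 2 was the highest at 7.07, beside 7.02. For Mvd, vector replicate 2 was the lowest at 5.18, beside 5.39.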

How the results depend on the processing

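Of the 10 changed members, 6 (Insig1, Sc5d, Dhcr7, Srebf1, Fasn and Scd2) passed in all 22 alternatives in which single genes were tested, and Msmo1, Hsd17b7, Idi1 and Scd1 in 21, 21, 16 and 12. Of the other 18, 17 passed in none and Acat2 in 8. Msmo1 and Hsd17b7 failed on log2(FPKM + 1) with no filter (adjusted p = 0.0998 and 0.0800, limma; over all alternatives 0.0015 to 0.0998 and 0.000721 to 0.0800). The values that changed sign belonged to genes that did not pass: Acss2 (-0.0062 with no filter, -6e-04 by DESeq2, -2e-04 on log2(FPKM + 1) with and without the filter, -4e-04 on log2(FPKM + 0.1) and -4e-04 with the replicate block; -0.0302 to 0.0375 with a library left out), Srebf2 (-0.0175 to 0.0013) and Stard4 (-0.0279 to 0.0095). The causes were not tested. Counts of changed members were 6 and 4 in the cholesterol and fatty acid branches. With log2(FPKM + 1) and no filter the cholesterol count was 3, of which 2 were higher. The fatty acid members that rose numbered 1 instead of 2 with no filter on counts, on log2(FPKM + 1) with and without the filter, on log2(FPKM + 0.1), and between 1 and 2 with a library left out. Against a 1.2-fold change (glmTreat), 0 members passed in either branch and direction, which was fixed by their fold changes lying inside that bound. Of the other list genes 6 passed, 6 higher and 0 lower, and of all tested genes 992, 854 higher and 138 lower. With the replicate block the counts were 7 and 4. Libraries with the same number did not deviate together (correlations of -0.011 to 0.015), so the numbers pair nothing. Other scalings changed 4 of 42 list counts by over 1.5 times. At the depth of these libraries the 95% intervals lay within 1.2-fold for all 18 uncalled members and within 1.1-fold for 14 of them.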
